A study of Mus musculus with 76 samples.

Results

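The type I interferon response genes described here are 36 genes chosen by name from those that cells are known to switch on after exposure to type I interferon, and all 36 were found among the 55536 genes of the deposited count table. They were measured by RNA sequencing of 38 whole tumors in 7 groups, 2 technical libraries per tumor. CT26, a mouse colon carcinoma line, was grown in 11 mice, of which 6 were injected in the tumor with CAT-ABP + alum and 5 with alum. CAT-ABP is a catalase joined to an alum-binding peptide, which holds the enzyme on the aluminium hydroxide particles where they are injected, and it is called extracellular catalase (EC CAT) here. 4T1, a mouse mammary carcinoma line, was grown in 11 mice, of which 6 received CAT-ABP + alum and 5 alum. 4T1-CAT, a 4T1 line engineered to make catalase and GFP when doxycycline is given (intracellular catalase, IC CAT), received CAT-ABP + alum in 5 mice and alum in 5. 4T1-control, engineered to make GFP alone under doxycycline, received alum in 6 mice. All mice were BALB/c and carried the tumor under the skin of the flank, CT26 mice from 1e6 cells and the others from 5e5. Mice with either engineered line were fed doxycycline from day 4, so both of those groups share the drug, and every tumor of all 7 groups was injected with alum, 100 ug, on day 6, with or without 20 ug CAT-ABP, and taken on day 8. These are the days in the sample labels, and the study's text gives other days. No tumor was left without alum, so an effect of alum itself was not measured, and both engineered lines were made from 4T1 with a lentiviral vector and sorted for GFP as a population. Expression of the vector was not examined here.

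Type I interferons are secreted when cells detect foreign or misplaced nucleic acid. They bind a receptor made of *Ifnar1* and *Ifnar2*, whose kinases activate transcription factors, *Stat2* and *Irf9* among them, that enter the nucleus and bind a short element rich in GAAA in the promoters of the response genes. The proteins these genes encode sense viral RNA or DNA, degrade RNA, block translation or viral assembly, or adjust the signal itself, and in tumors the same program is known to run in immune cells and in malignant cells. In whole tumor RNA, fewer cells of a type and less RNA per cell cannot be told apart.

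Promoters of the members were read first, since the response is defined by them. RefSeq promoters of GRCm38.p6, 250 bases before and 50 after each start site, were matched for 26 of the 36 members, and the letters GAAANNGAAA were searched on both strands, overlapping matches included. The letters were found in 15 of the 26 members (57.7%), against 3.99% of all 27025 genes with a promoter of the same length. Of 29 matches, 26 lay before the start site, where most of each window lies. Sites of *Apol9a* and *Apol9b* were counted once in each of their 2 promoters. The windows of at most 30 bases below are those of members described with values in the results, with the letters of the motif in capitals (read as TTTCNNTTTC where they lie on the other strand). They show that *Apol9a* and *Apol9b* carry the same window, and that the matches of *Ifih1* and *Ddx58*, which encode cytoplasmic RNA sensors, lie after the start site.
Oas1g, chr5:120887606-120887635, minus strand: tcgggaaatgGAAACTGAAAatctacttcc
Ifi203, chr1:173942508-173942537, minus strand: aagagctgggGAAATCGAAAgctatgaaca
Apol9a, chr15:77411120-77411149, minus strand: gaggtgagacTTTCAGTTTCcatttcccag
Apol9b, chr15:77729025-77729054, plus strand: gaggtgagacTTTCAGTTTCcatttcccag
Rsad2, chr12:26456553-26456582, minus strand: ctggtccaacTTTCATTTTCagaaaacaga
Ifih1, chr2:62646206-62646233, minus strand: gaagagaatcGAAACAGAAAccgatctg
Ddx58, chr4:40239804-40239833, minus strand: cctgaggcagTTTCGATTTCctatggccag
The letters were not in the windows read for *Oasl1*, *Oasl2*, *Ifi44*, *Ifi35*, *Ifit2*, *Irf7*, *Irf9*, *Isg20*, *Xaf1*, *Cmpk2* and *Herc6*, which says only that these letters are not there.

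In the genome (GENCODE M21, GRCm38), the members lay on 15 chromosomes, and 17 of them stood in 7 clusters with no more than 500 kb between neighbours. The longest run held 4 oligoadenylate synthetase genes, *Oas2*, *Oas3*, *Oas1g* and *Oas1a*, at chr5:120730333-120907521, and *Oasl2* and *Oasl1* lay elsewhere on that chromosome at chr5:114896936-114937915. *Ifit2*, *Ifit3* and *Ifit1* adjoined at chr19:34550694-34650009. Pairs were formed by *Rsad2* and *Cmpk2* on chromosome 12, *Mx1* and *Mx2* on 16, *Apol9a* and *Apol9b* on 15, and *Ifi204* and *Ifi203* on 1. The members of a cluster belong to 1 gene family, except *Rsad2* and *Cmpk2*, and counts that are not whole can arise where a read is divided among genes, which was not tested here. The share of non-zero library values that were not whole numbers was 88.2% for *Apol9a*, 91.8% for *Apol9b*, 98.6% for *Oas1g*, 97.4% for *Ifi203* and 94.7% for *Ifit3*, against 0% for *Zbp1*, *Irf7*, *Ifih1*, *Ifit2*, *Isg20*, *Oasl1*, *Oas2*, *Cmpk2* and *Bst2*. The share was also high in members outside the clusters, at 100% for *Irf9* and *Xaf1* and 89.3% for *Ddx58*. Values of *Apol9a*, *Apol9b*, *Oas1a*, *Oas1g*, *Ifi203*, *Ifi204* and *Ifit3*, which have near copies, are uncertain as to which copy they belong to.

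A library held between 46233 and 6958626 counts (median 2075009), and a tumor, after both libraries were summed, between 493044 and 9077549. The median count per tumor was at least 100 for 23 members and below 50 for 6, and *Bst2* and *Isg15* had 206 and 337 counts in all 38 tumors together, so differences in those members were the least detectable. Of 7 libraries under 518752 counts (0.25 of the median), 4 were 4T1-control, and 4T1-control replicate 2 (493044 counts) and 4T1 CAT-ABP + alum replicate 4 (837403 counts) were the shallowest tumors. The labels name no sequencing batch, but the libraries fell into 2 sets by their index tags, which were taken here as sequencing pools. All CT26 tumors, the 4T1 CAT-ABP + alum tumors and 4T1 alum replicates 1 and 2 were in the first set, and 4T1 alum replicates 3 to 5 and both engineered lines in the second.

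The mean level of the members was highest in the CT26 groups, and the engineered lines were not tested against CT26. The mean log2 CPM (CPM, counts scaled to library totals of equal size after TMM, prior count 2) over the 36 members was 6.24 ± 0.16 (SD, n = 5) in CT26 with alum and 5.88 ± 0.35 (n = 6) in CT26 with CAT-ABP + alum. In 4T1 it was 4.73 ± 0.18 (n = 5) with alum and 4.96 ± 0.26 (n = 6) with CAT-ABP + alum. In 4T1-CAT it was 4.64 ± 0.30 (n = 5) with alum and 4.71 ± 0.24 (n = 5) with CAT-ABP + alum, and in 4T1-control it was 4.45 ± 0.39 (n = 6). The lowest CT26 tumor (5.40) was on a level with the highest 4T1 tumor (5.39), and the 5 groups of 4T1 lines overlapped one another.

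**Figure D1:**
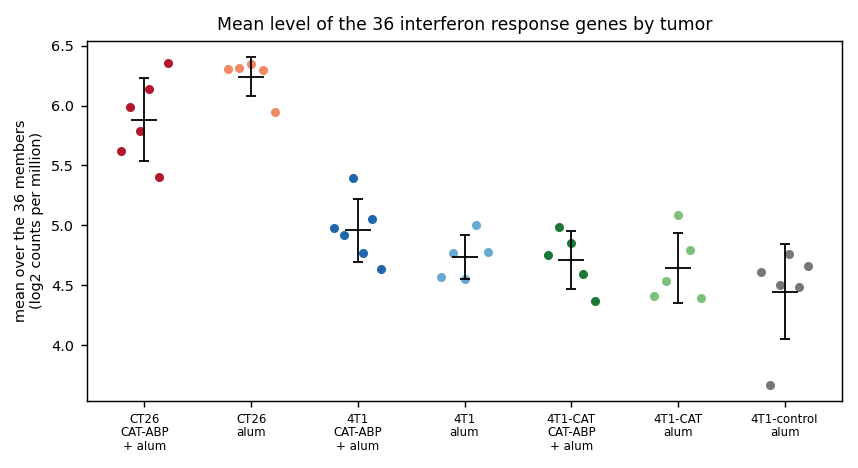
Mean log2 CPM over the 36 members (vertical axis) in each tumor of the 7 groups (horizontal axis); points are tumors in replicate order and black bars the mean ± SD. CT26 tumors lie between 5.40 and 6.35, the 4T1 lines between 3.67 and 5.39, and the lowest point is 4T1-control replicate 2.

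Within a group, tumors differed from each other by a shared step over many members. Of the 6 CT26 tumors given CAT-ABP + alum, replicate 5 was the lowest in 24 members and replicate 6 the highest in 23. Among CT26 alum tumors, replicate 5 was the lowest in 24 members, with a mean of 5.95 against 6.30 to 6.34 in the other 4. Among 4T1 CAT-ABP + alum tumors, replicate 3 was the highest in 22, and among 4T1-CAT alum tumors, replicate 3 was the highest in 24. After group means were removed, the 630 pairs of members had a median Pearson correlation of 0.38 over the 38 tumors, 87.5% of pairs were above 0, and the mean was 0.347 against 0.0304 over all pairs of 14646 genes. These correlations are a description: the points share tumors, depth and, for near copies, reads. *Ifit2* (0.88), *Herc6* (0.85) and *Ifit3* (0.83) followed the mean of the other members most closely, and *Ifi27l2a* (0.15), *Ifi35* (0.23) and *Irf9* (0.24) least.

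**Figure D2:**
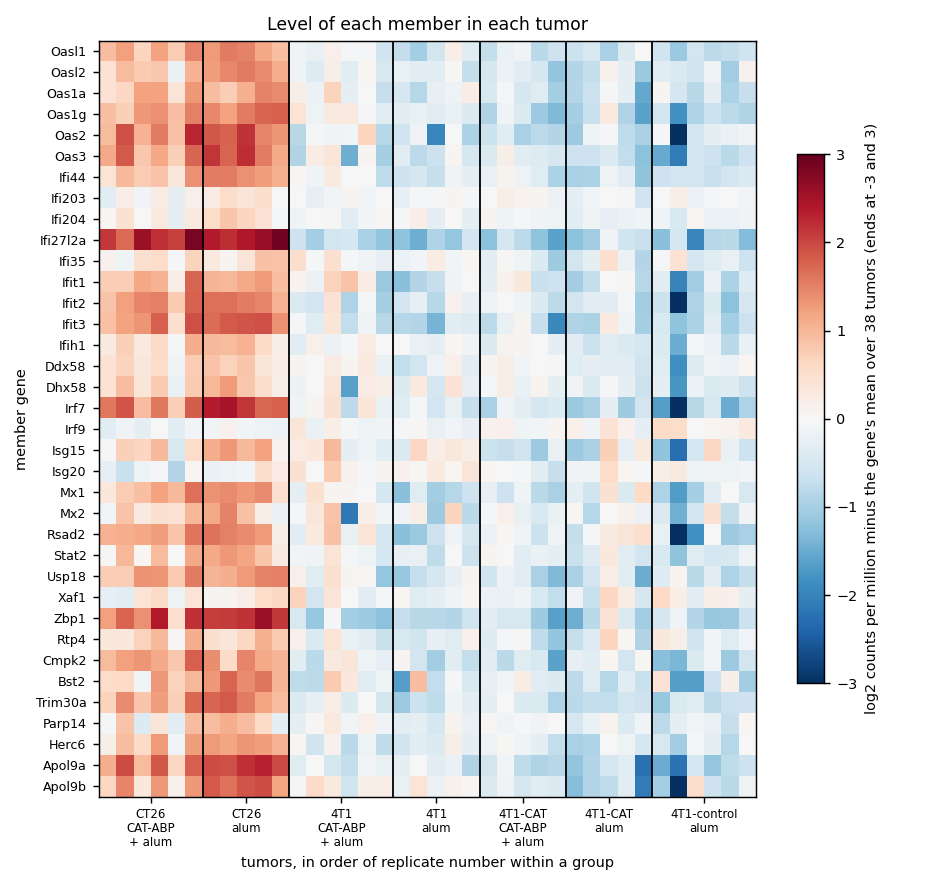
Log2 CPM of each member (rows) in each tumor (columns, in replicate order within a group), less the gene's mean over 38 tumors; red is above and blue below that mean. The CT26 columns are red for most members, *Irf9*, *Isg20* and *Ifi203* are pale throughout, and 4T1-control replicate 2 holds the darkest blue cells.

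CT26 and 4T1 tumors were compared to ask how far the program differs between the tumor models before catalase is given. With alum alone, 32 of the 36 members were higher in CT26 at an adjusted p of 0.05 or less (edgeR, quasi-likelihood test) and 0 were lower, beside 21.3% of all 12817 genes higher and 21.1% lower. The median member was 3.19-fold higher (log2 fold change 1.67), with the median over all genes at 0.02 on the log2 scale. *Irf9* (0.04), *Isg15* (0.84), *Isg20* (-0.10) and *Mx2* (0.90) did not pass on that scale. *Bst2*, 1 of the 32, had 65 counts in CT26 alum tumors and 18 in 4T1 alum tumors. *Bst2* and *Isg15* were below the filter on low counts in parental 4T1 tumors alone. They were tested here through their CT26 counts, so the direction of *Bst2* was favoured by that filter. Lines differ in tissue of origin, dose of cells and cell content, which cannot be told apart here.

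All 6 oligoadenylate synthetase family members, whose products make the 2-5A messenger that activates RNase L or are relatives without that activity, were higher in CT26 alum tumors, with a median log2 fold change of 1.80 and a range from 1.43 (*Oas1a*) to 2.38 (*Oas2*). The 3 IFIT genes, whose products bind viral RNA and hold back its translation, were higher by a median of 1.82. All 6 sensors were higher, by a median of 0.86, but they spread from 0.42 in *Ifi203*, a member of the DNA-binding PYHIN family, to 2.99 in *Zbp1*, a sensor of Z-form nucleic acid. Among transcription factors, *Irf7*, which amplifies interferon production, and *Stat2* passed (2.53 and 1.34), and *Irf9* did not. Of 7 antiviral effectors 5 passed: *Mx1* (2.12), *Bst2* (1.97), *Rsad2* (1.94), *Cmpk2* (1.70) and *Rtp4* (0.98). *Mx1* is of a family of antiviral GTPases, and whether it makes a working protein in BALB/c mice was not examined. *Bst2*, which had few counts, encodes the tether of budding virions. *Rsad2* encodes the radical SAM enzyme viperin, and *Cmpk2*, beside it, a mitochondrial nucleotide kinase. In the ISG15 system, *Usp18*, the protease that removes ISG15 and damps receptor signalling, and the ligase *Herc6* passed (1.73 and 1.48), and *Isg15* itself had few counts. The remaining 8 members all passed, from 0.45 in *Xaf1* to 3.56 in *Ifi27l2a*.

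The 3 largest differences are shown tumor by tumor. *Ifi27l2a*, which encodes a small hydrophobic interferon-induced protein, was at 597.0, 530.6, 605.4, 697.7 and 848.6 CPM in CT26 alum tumors and at 49.3, 40.9, 60.4, 51.0 and 76.3 CPM in 4T1 alum tumors (11.8-fold, log2 fold change 3.56, SE 0.20, adjusted p = 2.72e-09). *Zbp1* was at 528.3, 539.9, 566.9, 763.2 and 552.1 CPM in CT26 and at 77.4, 70.3, 70.8, 68.7 and 83.1 CPM in 4T1 (7.97-fold, SE 0.16 on the log2 scale, adjusted p = 1.28e-09). *Irf7* was at 76.8, 83.5, 66.6, 49.6 and 52.2 CPM in CT26 and at 11.3, 14.1, 9.67, 12.6 and 8.91 CPM in 4T1 (5.78-fold, SE 0.19, adjusted p = 4.84e-08). In each of these members every CT26 tumor was several times higher than every 4T1 tumor, with no overlap. They were picked by size of fold change. Every CT26 tumor was above every 4T1 tumor in 27 of the 36 members, and the share over all genes was not counted.

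With CAT-ABP + alum in both lines, 24 of 34 tested members were higher in CT26 and 1 was lower, beside 21.8% of 13016 genes higher and 23.7% lower, and the median member was 1.81-fold higher (log2 fold change 0.86). *Isg15* and *Bst2* were below the filter on low counts in that comparison. The oligoadenylate synthetase family (6 of 6, median 1.11) and the IFIT genes (3 of 3, median 1.53) again all passed. Of the 6 sensors 2 passed, *Zbp1* and *Ifih1*, and *Ifi203* (0.01), *Ifi204* (0.18), *Ddx58* (0.33) and *Dhx58* (0.49) did not. The other members that did not pass were *Ifi35*, *Irf9*, *Mx2*, *Xaf1* and *Parp14*.

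*Ifi27l2a* ranged from 374.5 to 823.7 CPM (median 513.5) in CT26 with CAT-ABP + alum and from 50.2 to 79.2 CPM (median 66.1) in 4T1 with CAT-ABP + alum (8.42-fold, adjusted p = 1.09e-09). *Zbp1* ranged from 179.4 to 655.1 CPM (median 372.3) and from 53.2 to 122.4 CPM (median 60.6) in the same groups (5.36-fold, adjusted p = 2.25e-06), and *Apol9a*, an apolipoprotein L family gene, from 33.6 to 86.2 CPM (median 61.8) and from 13.2 to 22.03 CPM (median 17.8; 3.30-fold, adjusted p = 5.51e-06). None of these ranges overlapped between the lines, in members picked by size of fold change. Every CT26 tumor was above every 4T1 tumor in 14 of the 36 members, and the share over all genes was not counted. *Isg20*, an exonuclease gene, went the other way, from 30.8 to 58.8 CPM (median 49.4) in CT26 and from 55.2 to 98.3 CPM (median 61.4) in 4T1, with an overlap of the ranges (log2 fold change -0.61, SE 0.18, adjusted p = 0.0111).

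**Figure D3:**
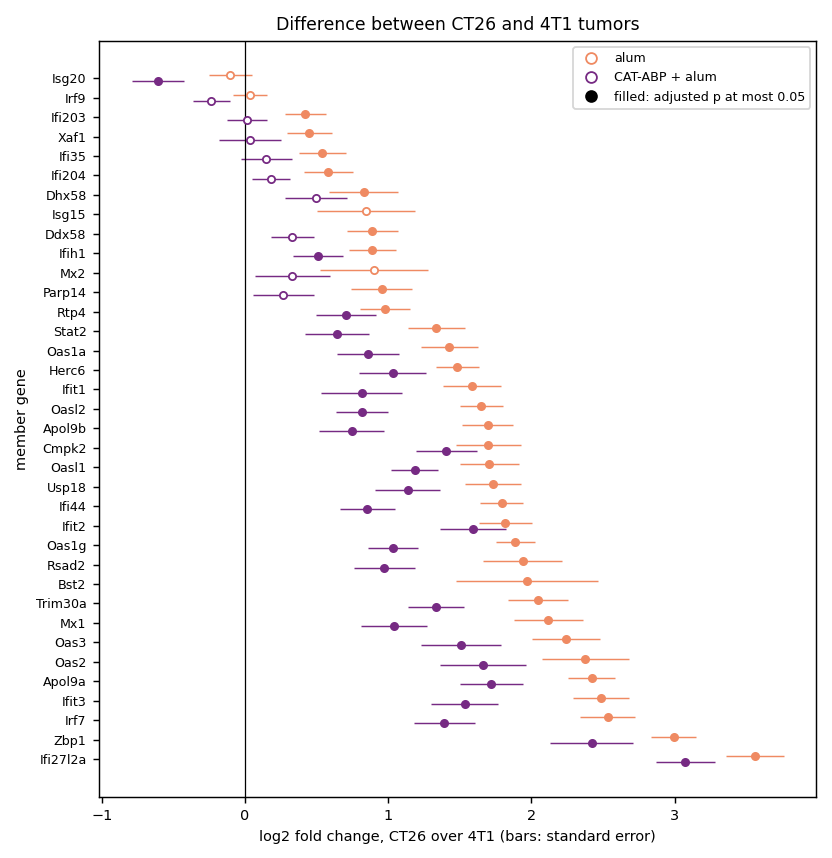
Log2 fold change of CT26 over 4T1 tumors (horizontal axis; bars are the standard error) for each member, with alum (orange) and with CAT-ABP + alum (purple); filled points have an adjusted p of 0.05 or less. Most filled points lie to the right of 0, from 0.42 to 3.56 with alum, and the purple point lies to the left of the orange one in the members that have both.

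Genes around the members were read from lists of the pathway. The 18 type I interferon genes had 22 counts in all over the 38 tumors, never more than 3 in a tumor, and 12 of them were listed at 0, so differences in the ligands were not detectable at this depth. *Ifng*, the type II interferon gene, whose targets overlap with the members, had 246 counts in CT26 alum tumors (2.66 to 33.7 CPM), 200 in CT26 CAT-ABP + alum tumors (0.491 to 13.9 CPM) and between 3 and 19 in each group of the 4T1 lines. The receptor genes *Ifnar1* (log2 fold change -0.05) and *Ifnar2* (0.27) did not pass in CT26 against 4T1 with alum, and of 5 tested genes in the list of interferons and receptors 1 passed. Of 12 genes that signal from the receptor, 6 were higher in CT26, among them *Socs1* (1.93) and *Irf2* (1.19), and the kinase genes *Jak2* (-1.26) and *Tyk2* (-1.16) were lower. Of 16 tested genes of sensing and signalling to interferon, 8 were higher, led by *Aim2* (2.53), a DNA sensor, *Unc93b1* (1.31), which escorts Toll-like receptors, and the kinase gene *Ikbke* (1.14). Of 56 other interferon-stimulated genes tested, 45 were higher, led by *Ly6e* (3.00), and 1 was lower, *Ifi27* (-1.04), with a median of 1.00.

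Markers of cell types differed in the same comparison. In CT26 against 4T1 with alum, 6 of 7 tested NK cell markers (median log2 fold change 4.18), 7 of 8 T cell markers (2.25), 6 of 7 plasmacytoid dendritic cell markers (1.59), 4 of 11 macrophage markers (0.73) and 2 of 2 B and plasma cell markers (2.57) were higher. All 6 tested epithelial markers were lower (-6.21), as were 4 of 8 fibroblast (-0.59), 2 of 7 neutrophil (-0.55), 1 of 7 dendritic cell (-0.13) and 1 of 7 endothelial markers (-0.31). Of the neutrophil, dendritic cell and fibroblast lists 1 marker each was higher, and 1 of the plasmacytoid list was lower. The plasmacytoid list holds *Bst2*, itself a member, and *Irf8*, also listed among genes that signal from the receptor. It is therefore not separate from the members. The 8 NK cell markers summed to between 723 and 1030 CPM in CT26 alum tumors and between 25.7 and 38.7 CPM in 4T1 alum tumors, the 9 T cell markers to between 96.4 and 235.0 CPM and between 47.9 and 65.4 CPM, and the 8 epithelial markers to between 20.8 and 32.6 CPM and between 1850 and 2800 CPM. No listed NK or T cell marker was at 0 in either group. The NK list holds *Ncr1*, *Klrb1c*, *Klrk1*, *Gzma*, *Gzmb*, *Prf1*, *Eomes* and *Klre1*. Some of these, such as *Gzmb* and *Prf1*, are also expressed by cytotoxic T cells, so the sum is not of NK cells alone. The part of cell content in the members' difference was not tested.

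EC CAT in CT26 was compared to ask whether the injected enzyme moves the program. No member passed the adjusted test (0 of 36, smallest adjusted p = 0.9997, edgeR; 0 by DESeq2), as for 0% of all 12830 genes. By sign, 35 of 36 members were below 0 and 1, *Cmpk2* (0.07), was above, with a median of -0.32 on the log2 scale, beside 50.7% of all genes below 0 and a median of -0.00. At an unadjusted p under 0.05, 9 members were lower (25% of those tested) and 0 higher, beside 1.53% of all genes lower and 0.896% higher. The 9 members became 16 without alum replicate 5, 14 without CAT-ABP + alum replicate 6 and 21 with the replicate number as a block. Without CAT-ABP + alum replicate 1 there were 7. Members are not independent of each other, since they follow shared steps between tumors, and these counts carry no p.

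By role, the fold changes of all 6 oligoadenylate synthetase genes lay between -0.68 and -0.23, those of the 6 sensors between -0.53 (*Zbp1*) and -0.16 (*Ddx58*), and those of the 3 IFIT genes between -0.41 and -0.07. The ISG15 system (median -0.46) and the transcription factors (median -0.38) also lay below 0. Antiviral effectors spread from -0.82 in *Bst2*, which had few counts, to 0.07 in *Cmpk2*. The members with unadjusted p under 0.05 were *Oasl2*, *Apol9b*, *Ifi44*, *Irf7*, *Apol9a*, *Oas1g*, *Bst2*, *Ifi203* and *Oas3*.

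*Oasl2*, an oligoadenylate synthetase-like gene, stood between 46.8 and 110.6 CPM (median 93.4) with CAT-ABP + alum, and at 128.2, 147.1, 159.4, 142.8 and 114.8 CPM with alum. It was the 1 member of 36 whose groups did not overlap (log2 fold change -0.68, SE 0.19, unadjusted p = 0.00262, adjusted p = 0.9997; exact permutation p = 0.00433, two-sided, where 0.00216 is the smallest possible and 18 members were tested in this way). The share of all genes whose groups did not overlap was not counted, so that number of members has no background beside it. *Apol9b* stood between 16.2 and 41.4 CPM (median 30.0) with CAT-ABP + alum and at 54.2, 46.4, 55.4, 59.0 and 34.1 CPM with alum (-0.79, SE 0.24, unadjusted p = 0.00553). Its groups met only through alum replicate 5. *Ifi44* stood between 99.2 and 203.9 CPM (median 138.2) and at 227.6, 228.7, 202.6, 189.5 and 165.7 CPM with alum (-0.54, SE 0.18, unadjusted p = 0.00888), with CAT-ABP + alum replicate 6 inside the alum range. *Ifi203* stood between 196.2 and 292.2 CPM (median 256.7) and at 296.2, 366.0, 323.4, 357.2 and 250.3 CPM with alum (-0.36, SE 0.15, unadjusted p = 0.0348), again overlapping through alum replicate 5. *Oasl2*, *Apol9b* and *Ifi203* are among the genes the study lists as significant after adjustment for this comparison, using DESeq2 on these same tumors. None of them passed the adjusted test here, by edgeR or by DESeq2, so the calls differ from those of the study. The study left out some technical libraries for low depth, which its text does not name, while both libraries of every tumor were summed here. The cause of the difference in calls was not tested. Because the tumors are the same, the direction of these members is not independent evidence.

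NK cell markers lay on the same side as the members. All 8 were below 0 in EC CAT in CT26 (median -0.55, 0 past the adjusted test), and their sum ran from 188.7 to 1023 CPM (median 532.6) in the CAT-ABP + alum tumors against 723 to 1030 CPM with alum, with no marker at 0. The tumor with the lowest NK sum, CAT-ABP + alum replicate 5 (188.7 CPM), also had the lowest member mean (5.40). In replicates 1, 2, 3, 4 and 6 the NK sums were 386, 786, 316, 1023 and 679 CPM. The member means of these tumors, in the same order, were 5.62, 5.99, 5.79, 6.14 and 6.35. The orders were thus alike in part. Replicate 4 had the highest NK sum and replicate 6 the highest member mean, and replicates 1 and 3 stood in opposite order. Of the other lists, 7 of 7 plasmacytoid dendritic cell (median -0.34), 7 of 8 T cell (-0.17), 7 of 11 macrophage (-0.06) and 3 of 3 epithelial markers (-0.20) were below 0, and 7 of 7 neutrophil (0.44), 6 of 8 fibroblast (0.08), 5 of 6 endothelial (0.02), 3 of 6 dendritic cell (0.06) and 2 of 3 B and plasma cell markers (0.01) above. The plasmacytoid list shares *Bst2* with the members. Along the pathway, 50 of 57 other interferon-stimulated genes (-0.25), 10 of 12 genes that signal from the receptor (-0.36), 11 of 16 of sensing and signalling to interferon (-0.17) and 6 of 6 interferons and receptors (-0.16) were below 0. None passed the adjusted test, and the part of NK cell content was not tested.

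EC CAT in 4T1 gave members mostly above 0. None passed (0 of 34, adjusted p = 0.9993 for each, edgeR; 0 by DESeq2; 0% of all 13092 genes), 31 members were above 0 and 3 below (*Herc6* at -0.05, *Ifi204* and *Zbp1* at -0.01), and the median was 0.23 beside -0.00 over all genes, of which 49.5% were above 0. Under 0.05 without adjustment, 7 members were higher (20.6%) and 0 lower, beside 1.53% of all genes higher and 1.35% lower. This count rested on single tumors, with 3 members without CAT-ABP + alum replicate 3, without CAT-ABP + alum replicate 5 or without alum replicate 1, 4 without alum replicate 2 or 3, and 11 without alum replicate 4. The 7 were *Mx1*, *Rsad2*, *Oas1g*, *Ifit3*, *Ddx58*, *Ifit1* and *Irf7*. By role, the medians were 0.51 for the IFIT genes, 0.30 for antiviral effectors, 0.26 for the oligoadenylate synthetase family and 0.04 for sensors. The median without 4T1 CAT-ABP + alum replicate 3, the highest tumor, was 0.12.

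*Mx1* stood between 5.36 and 10.9 CPM (median 8.19) with CAT-ABP + alum and at 3.08, 6.05, 3.65, 4.2 and 4.98 CPM with alum (log2 fold change 0.83, SE 0.26, unadjusted p = 0.00459). *Rsad2* stood between 10.5 and 28.7 CPM (median 16.1) and at 6.16, 6.92, 9.86, 14.2 and 10.7 CPM with alum (0.82, SE 0.27, unadjusted p = 0.00608). *Oas1g* stood between 36.8 and 63.3 CPM (median 51.8) and at 37.3, 40.4, 37.8, 40.4 and 35.9 CPM with alum (0.38, SE 0.15, unadjusted p = 0.0213). In each of them the lowest treated tumor lay inside the alum range, and the groups overlapped. Within the index-tag set that held the 6 CAT-ABP + alum tumors and alum replicates 1 and 2, the median over members was 0.21.

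In 4T1, T cell markers (7 of 7, median 0.23), fibroblast markers (8 of 8, 0.22), 5 of 7 neutrophil (0.37), 4 of 6 plasmacytoid dendritic cell (0.44), 4 of 5 NK cell (0.16), 4 of 7 endothelial (0.02) and the 1 tested B and plasma cell marker (0.33) were above 0 with EC CAT. Macrophage (8 of 11, -0.15), epithelial (4 of 6, -0.10) and dendritic cell markers (4 of 7, -0.14) were mostly below. Of 55 other interferon-stimulated genes tested, 39 were above 0 (0.13), while the genes of the receptor pathway (8 of 12 below, -0.03), of sensing (8 of 15 below, -0.00) and of interferons and receptors (5 of 6 below, -0.09) showed no such side. None passed the adjusted test, and the part of these cell types was not tested.

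**Figure D4:**
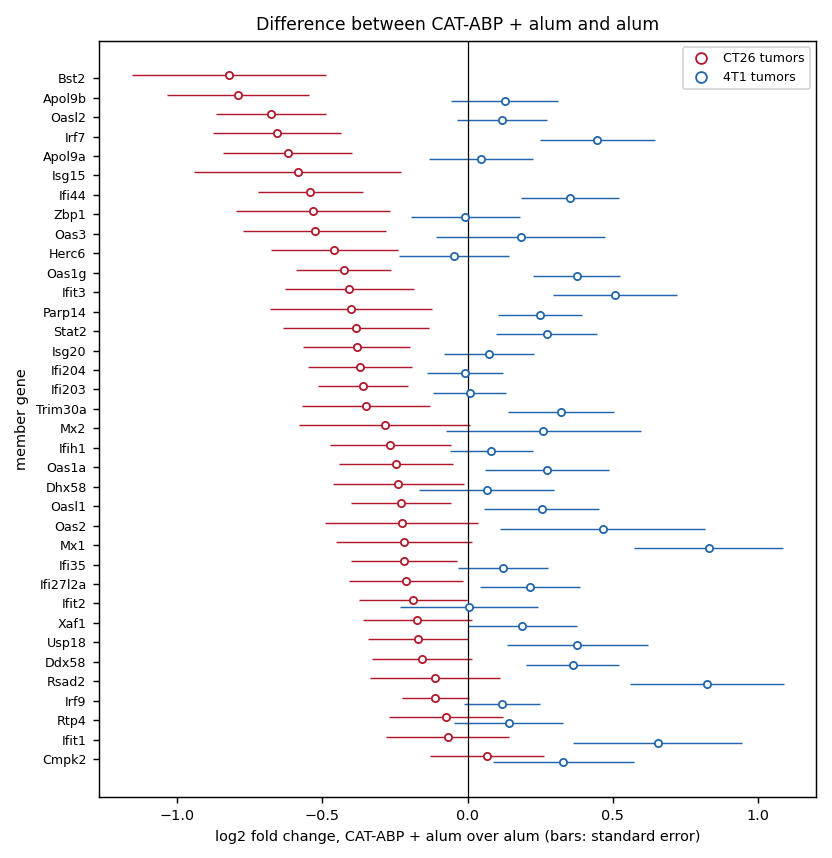
Log2 fold change of CAT-ABP + alum over alum (horizontal axis; bars are the standard error) for each member in CT26 (red) and in 4T1 (blue), sorted by the CT26 value; open points did not pass the adjusted test. CT26 points run from -0.82 to 0.07 and 4T1 points from -0.05 to 0.83, and *Isg15* and *Bst2* have no 4T1 point.

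Whether EC CAT moved the members differently in CT26 and 4T1 was tested as an interaction. No member passed (0 of 36, adjusted p = 1 for each, edgeR; 0 by DESeq2), as for 0% of all 14160 genes. The CT26 effect was below the 4T1 effect in all 36 members, by a median of 0.57 on the log2 scale and a range from -1.12 to -0.21, beside 53.2% of all genes below 0 and a median of -0.02. Before adjustment (p under 0.05), 12 members were lower (33.3%) and 0 higher, beside 2.37% of all genes lower and 1.23% higher. There were 20 such members without CT26 CAT-ABP + alum replicate 6 and 9 without 4T1 alum replicate 1. The 36 members include *Isg15* and *Bst2*, which had few counts and were below the filter on low counts in 4T1 tumors alone. This difference is the same quantity as the smaller gap between CT26 and 4T1 under CAT-ABP + alum than under alum, and not a separate result.

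*Irf7* had the smallest p in the interaction (-1.12, SE 0.30, unadjusted p = 0.00102). It stood between 24.2 and 55.5 CPM (median 44.8) in CT26 with CAT-ABP + alum, against 49.6 to 83.5 CPM with alum, and between 8.39 and 20.3 CPM (median 14.4) in 4T1 with CAT-ABP + alum, against 8.91 to 14.1 CPM with alum. Treated tumors were thus lower in CT26 and higher in 4T1 on the median, and each pair of groups overlapped. *Oas1g* (-0.83, SE 0.23, unadjusted p = 0.00115) stood between 77.8 and 137.3 CPM (median 103.5) in CT26 with CAT-ABP + alum, and at 130.7, 110.4, 141.3, 161.0 and 166.0 CPM with alum. *Ifi44* (-0.92, SE 0.26, unadjusted p = 0.00135) stood in 4T1 between 46.0 and 95.1 CPM (median 78.9) with CAT-ABP + alum, and at 51.4, 55.4, 48.7, 72.5 and 64.2 CPM with alum. These 3 members combine a negative value in CT26 with a positive one in 4T1, while *Zbp1* (-0.53 and -0.01) and *Apol9b* (-0.79 and 0.13) take most of their difference from CT26, and *Mx1* (-0.22 and 0.83) and *Rsad2* (-0.11 and 0.82) from 4T1.

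Marker lists lay on both sides of 0 in the interaction. Below 0 were 8 of 8 NK cell (median -0.82), 8 of 8 T cell (-0.57), 6 of 7 plasmacytoid dendritic cell (-0.84, a list that shares *Bst2* with the members), 3 of 3 B and plasma cell (-0.41), 5 of 6 epithelial (-0.15), 5 of 8 fibroblast (-0.17) and 4 of 7 neutrophil markers (-0.03). Above 0 were 7 of 11 macrophage (0.13), 4 of 7 endothelial (0.12) and 4 of 7 dendritic cell markers (0.01). Of the pathway lists, 50 of 58 other interferon-stimulated genes (-0.36), 10 of 12 genes that signal from the receptor (-0.33), 11 of 16 of sensing (-0.19) and 4 of 7 interferons and receptors (-0.12) were below 0. None passed the adjusted test, and the part of these cell types was not tested.

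**Figure D5:**
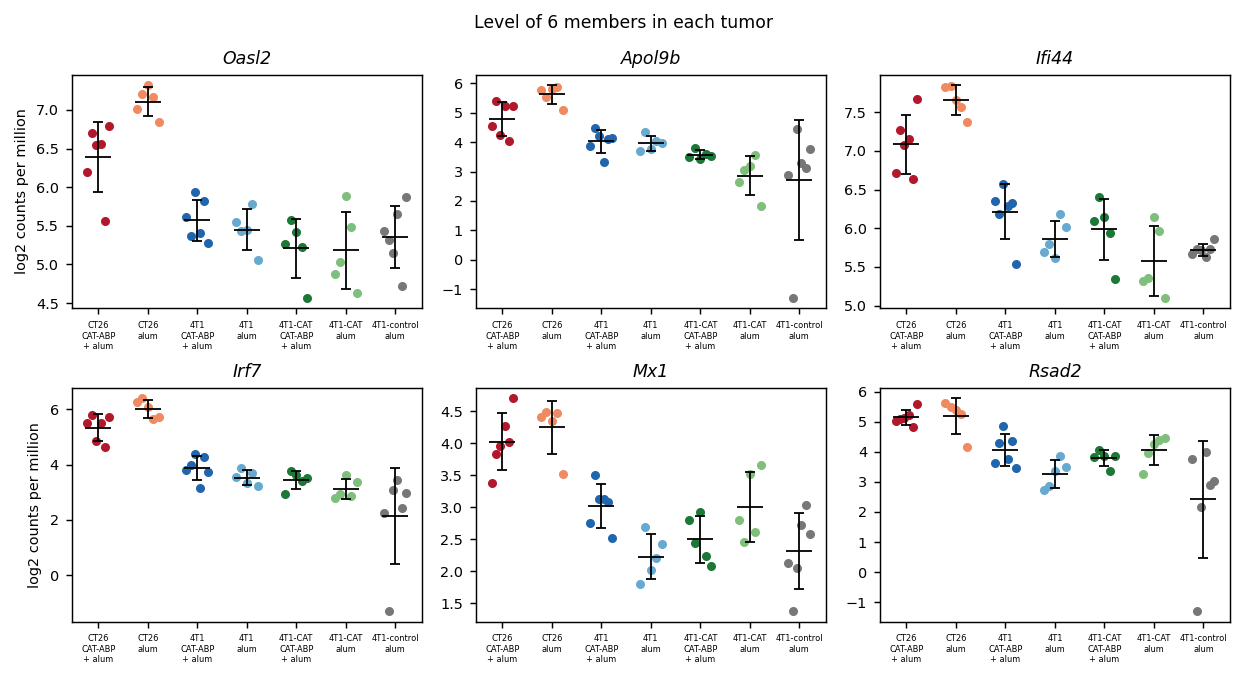
Log2 CPM (vertical axis) of *Oasl2*, *Apol9b*, *Ifi44*, *Irf7*, *Mx1* and *Rsad2* in each tumor of the 7 groups; points are tumors in replicate order and black bars the mean ± SD. The first 4 are lower on average in CT26 with CAT-ABP + alum than with alum, *Mx1* and *Rsad2* are higher on average in 4T1 with CAT-ABP + alum, and 4T1-control replicate 2 has 0 counts of *Apol9b*, *Irf7* and *Rsad2*.

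EC CAT in the 4T1-CAT line, where tumor cells were also induced to make catalase, gave members on both sides. No member passed (0 of 34, smallest adjusted p = 0.1865, edgeR), as for 0% of all 13093 genes, 18 were above 0 and 16 below, and the median was 0.07 (-0.00 over all genes). It was -0.03 without CAT-ABP + alum replicate 2, and 0.17, with 26 members above 0 and 8 below, without alum replicate 3. At an unadjusted p under 0.05, 3 members were higher (8.82%) and 0 lower, beside 15.3% of all genes in either direction. That number was 8 without alum replicate 3, 5 without alum replicate 2 or 4 or with the replicate number as a block, and 7 without CAT-ABP + alum replicate 5. *Ddx58* was at 43.0, 45.9, 38.4, 41.1 and 39.3 CPM with CAT-ABP + alum and at 31.7, 32.8, 32.3, 32.5 and 26.8 CPM with alum, without overlap (0.41, SE 0.10, unadjusted p = 0.00147, adjusted p = 0.1865, edgeR; adjusted p = 0.0262 by DESeq2). Its share of values that were not whole numbers was 89.3%. *Ifih1* was at 28.2, 40.5, 39.5, 37.8 and 30.9 CPM and at 29.8, 23.8, 30.1, 27.5 and 26.0 CPM (0.36, SE 0.13, unadjusted p = 0.0138), with CAT-ABP + alum replicate 1 inside the alum range. *Apol9b* was at 10.97, 13.7, 10.3, 11.8 and 11.02 CPM and at 5.87, 7.81, 8.61, 11.5 and 3.15 CPM (0.60, SE 0.24, unadjusted p = 0.0247), overlapping through alum replicate 4. The 2 RNA sensors and *Apol9b* stood on the high side, while 6 of 6 tested antiviral effectors were below 0 (median -0.29). Of the marker lists, 7 of 7 dendritic cell (median -0.62), 6 of 7 T cell (-0.32), 5 of 6 NK cell (-0.43), 5 of 6 plasmacytoid dendritic cell (-0.46) and 7 of 8 fibroblast markers (-0.39) were below 0 and 6 of 6 epithelial markers (0.25) above, none past the adjusted test, and their part was not tested.

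The effect of EC CAT in 4T1-CAT less that in 4T1 was not past the adjusted test in any member (0 of 35, smallest adjusted p = 0.529, edgeR; 0 by DESeq2), as for 0% of all 13851 genes. The median was -0.17, and it was -0.01 without 4T1-CAT alum replicate 3 and -0.33 with the index-tag set as a term. Under 0.05 without adjustment, 3 members were lower (8.57%), near the 8.79% of all genes: *Mx1* (-1.38, SE 0.39, unadjusted p = 0.00139), *Rsad2* (-1.14, SE 0.37) and *Cmpk2* (-0.78, SE 0.36). *Mx1* was at 6.58, 5.03, 7.24, 4.33 and 3.82 CPM in 4T1-CAT with CAT-ABP + alum and at 6.54, 5.08, 11.1, 5.75 and 12.2 CPM with alum, so that treated tumors were not above the alum tumors. Below 0 in the same difference were 7 of 7 T cell (median -0.99), 5 of 6 plasmacytoid dendritic cell (-1.04), 5 of 6 NK cell (-0.79), 8 of 8 fibroblast (-0.48), 8 of 8 neutrophil (-0.45) and 5 of 7 dendritic cell markers (-0.24). Above 0 were 6 of 6 epithelial (0.23) and 6 of 11 macrophage markers (0.05). None passed the adjusted test, and the part of these cell types was not tested.

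IC CAT, read as 4T1-CAT against 4T1-control with alum, gave members on both sides of 0. None passed (0 of 34, smallest adjusted p = 0.7995, edgeR; 0 by DESeq2; 0% of all 12534 genes), 20 were above 0 and 14 below, and the median was 0.06, or -0.05 without 4T1-CAT alum replicate 3. Before adjustment (p under 0.05), 1 member was higher (2.94%), beside 5.08% of all genes. That member, *Rsad2*, was at 9.22, 15.0, 18.8, 20.4 and 21.7 CPM in 4T1-CAT and between 0 and 15.6 CPM (median 7.35) in 4T1-control, whose shallow replicate 2 had 0 counts (0.91, SE 0.34, unadjusted p = 0.0159). The groups overlapped. *Ifi27l2a* (0.41, SE 0.23) and *Mx1* (0.56, SE 0.31) followed with unadjusted p = 0.0903 and p = 0.0924. Marker lists lay mostly above 0, with 6 of 6 T cell (median 0.73), 5 of 6 NK cell (0.76), 7 of 7 neutrophil (0.58), 5 of 6 plasmacytoid dendritic cell (0.55), 5 of 6 dendritic cell (0.45), 8 of 8 fibroblast (0.40), 9 of 10 macrophage (0.17) and 3 of 6 epithelial markers (0.05). None passed the adjusted test, and the part of these cell types was not tested.

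With both catalases (4T1-CAT given CAT-ABP + alum against 4T1-control given alum), no member passed (0 of 34, smallest adjusted p = 0.2011, edgeR; 0 by DESeq2), beside 0.0235% of 12781 genes. There were 25 members above 0 and 9 below, with a median of 0.11 (0.03 over all genes; 0.02 without 4T1-CAT CAT-ABP + alum replicate 2). At an unadjusted p under 0.05, 5 were higher and 1 lower (17.6%), near the 16.9% of all genes. The 6 members became 1 without 4T1-CAT CAT-ABP + alum replicate 2, 2 without 4T1-control replicate 5 and 3 without 4T1-control replicate 1. *Xaf1*, which encodes an antagonist of an apoptosis inhibitor, was at 249.6, 242.6, 254.1, 204.3 and 167.5 CPM against 225.0 to 424.1 CPM (-0.43, SE 0.17, unadjusted p = 0.0206), and *Ifit2* at 20.6, 23.4, 20.9, 17.1 and 13.3 CPM against 2.19 to 16.9 CPM (0.53, SE 0.22, unadjusted p = 0.0282). *Dhx58*, a regulator of the RNA sensors, was at 15.4, 18.1, 13.6, 17.0 and 12.7 CPM against 4.39 to 13.8 CPM (0.43, SE 0.18, unadjusted p = 0.0305). All of these comparisons share the same 4T1-CAT or 4T1-control tumors, so their values are not separate observations.

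Engineered lines, in mice fed doxycycline, were set against the parental line, in mice without it. In 4T1-control against 4T1 with alum, no member passed (0 of 34, smallest adjusted p = 0.262, edgeR; 0 by DESeq2; 0% of all 12431 genes), 26 were below 0 and 8 above, and the median was -0.14, or -0.01 without 4T1 alum replicate 4 and -0.25 with the index-tag set as a term. Under 0.05 without adjustment, 4 were lower and 1 higher (14.7%), beside 10.5% of all genes, and there were 3 in all without 4T1 alum replicate 2. *Oas1g* stood between 13.2 and 31.7 CPM (median 26.4) in 4T1-control, below all 4T1 alum tumors (35.9 to 40.4 CPM; -0.54, SE 0.15, unadjusted p = 0.00158). *Irf7* stood between 0 and 10.5 CPM (median 6.21), against 8.91 to 14.1 CPM (-0.73, SE 0.28, unadjusted p = 0.0183), and *Apol9a* between 4.39 and 15.0 CPM (median 11.2), against 11.5 to 21.9 CPM (-0.62, SE 0.22, unadjusted p = 0.0124). Both of these overlapped between the groups. Doxycycline was fed to the 4T1-control mice alone, so the line, the vector and the diet cannot be told apart. All 4T1-control tumors were in the second index-tag set, and the 4T1 alum tumors were in both sets.

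In 4T1-CAT against 4T1 with CAT-ABP + alum, no member passed (0 of 34, smallest adjusted p = 0.9734, edgeR; 0 by DESeq2), beside 0.0151% of 13235 genes. There were 29 members below 0 and 5 above, with a median of -0.35, or -0.19 without 4T1 CAT-ABP + alum replicate 3. Before adjustment (p under 0.05), 10 were lower (29.4%), beside 4.28% of all genes. This count was 3 without 4T1-CAT CAT-ABP + alum replicate 5, 5 without 4T1 CAT-ABP + alum replicate 3, 6 without 4T1-CAT CAT-ABP + alum replicate 4 and 17 with the replicate number as a block. *Oas1g* was at 25.1, 43.9, 34.9, 22.2 and 18.8 CPM in 4T1-CAT and between 36.8 and 63.3 CPM in 4T1 (-0.81, SE 0.21, unadjusted p = 0.0012). *Apol9b* was between 10.3 and 13.7 CPM against 9.59 to 22.03 CPM (-0.56, SE 0.17, unadjusted p = 0.00384), and *Irf7* between 7.26 and 13.3 CPM against 8.39 to 20.3 CPM (-0.55, SE 0.20, unadjusted p = 0.0129). Each of these overlapped between the groups. All tumors of one group were in one index-tag set and all of the other in the other set, and doxycycline was fed to one group alone, so the line, the diet and the index-tag set cannot be told apart.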

How the data were processed

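RNA of 38 tumors was sequenced in 76 libraries by a 3' tag method (HT3DGE) on a NextSeq system. The authors made estimated counts per gene with Terra's Smart-seq2 pipeline, deposited them without normalization and used DESeq2; collapsing of molecular identifiers, the aligner version and the build are not given in the sources used here. A fractional part was present in 39.7% of values above 0. Counts were summed over the 2 libraries of each tumor, then rounded. Groups came from the sample labels, which do not say more on replicates than that they are separate tumors, so p-values measure the spread between tumors.

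Genes were filtered with filterByExpr, scaled by TMM and tested with edgeR 4.0.16 (quasi-likelihood, Benjamini-Hochberg over all genes tested, adjusted p of 0.05 or less) in R 4.3.3, with the compared groups in the model; differences between effects were interaction contrasts. Log2 CPM used a prior count of 2. Single members were also compared by two-sided exact permutation tests. The scripts were tested on simulated data. The members, the lists and the tests were chosen with earlier results of these data known. Members named with values were *Oasl2*, *Ifi203* and *Apol9b*, and per comparison the 3 with the largest fold change in each direction past the threshold or, where fewer than 3 passed, the 3 with the smallest unadjusted p. Other members are named beside counts or by role, after their values were seen. A gene of the pathway lists is not reported here. Alternatives were DESeq2 1.42.0, RLE scaling, no filter, a mean of at least 20 counts, 1 model over 7 groups, the replicate number as a block, shallow libraries left out, the set of index tags as a term (taken as a sequencing pool, which the labels do not name), a prior count of 0.5 and each tumor left out.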

Additional observations from a re-analysis of the deposited data

Results flagged for a closer look

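A sample was set apart where its gap to the nearest sample of its group was large against the range of the group (Dixon's test at the 95% level), over 133 sets of values of the 18 members given by tumor and the mean over the 36 members. Chance sets apart about 1 in 20 groups, and 15 of the 133 were set apart here. Of these, 8 belong to 4T1-control replicate 2, the shallowest tumor, in which the members listed had between 0 and 6 counts. Its log2 CPM was -1.30 for *Apol9b*, *Irf7* and *Rsad2* (0 counts of each), 1.38 for *Ifit2* (1 count), 2.26 for *Dhx58*, 3.51 for *Ddx58* and 3.76 for *Oas1g*, and its mean over members was 3.67 against 4.48 to 4.76 in the other 5 tumors.

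CT26 alum replicate 5 was low in *Mx1* (3.53 against 4.36 to 4.49 in the others), in *Rsad2* (4.15 against 5.26 to 5.61) and in the mean over members (5.95 against 6.30 to 6.34), with 5665117 counts. CT26 alum replicate 4 was high in *Zbp1* (9.58 against 9.05 to 9.15). Among 4T1-CAT alum tumors, replicate 5 was low in *Ddx58* (4.77 against 5.00 to 5.05), the group against which *Ddx58* was compared under EC CAT, and replicate 3 was high in *Isg20* (6.399 against 5.70 to 5.90). 4T1 CAT-ABP + alum replicate 4, a shallow tumor with 4 counts of *Dhx58*, was low in that member (2.38 against 3.82 to 4.40).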

How the results depend on the processing

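Under the alternatives run, and with each tumor left out, the median over members moved by less than the pooled SD between tumors. Group SDs were 0.16 to 0.39, larger than several of these medians, so that check was weak. With a tumor left out, the median crossed 0 for EC CAT in 4T1-CAT (0.07 to -0.03) and for IC CAT (0.06 to -0.05). Of single members, 717 of 718 values kept their direction and side of the threshold. The exception was *Ddx58* with EC CAT in 4T1-CAT, where DESeq2 called 1 member (0 by edgeR). DESeq2 called 249 genes there, 510 with both catalases (3 by edgeR), 16 in 4T1-control against 4T1, 8 in 4T1-CAT against 4T1, 6 for IC CAT and 1 for EC CAT in CT26. Without the filter on low counts, edgeR called 532 genes with both catalases, 131 for IC CAT, 130 in 4T1-control against 4T1, 47 for EC CAT in 4T1-CAT, 16 for EC CAT in 4T1 and 13 in 4T1-CAT against 4T1, with 0 members. With both catalases, 575 genes passed without 4T1-control replicate 3 and 0 without 4T1-CAT CAT-ABP + alum replicate 1.

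The median for EC CAT lay between -0.40 and -0.28 in CT26 (between -0.40 and -0.25 with a tumor left out), between 0.20 and 0.31 in 4T1 (0.12 to 0.33), and between -0.62 and -0.53 for their difference (-0.67 to -0.42). For CT26 against 4T1, between 26 and 33 members passed with alum (29 to 33 with a tumor left out; 27 with the index-tag set as a term, 26 within a set, an alternative added after the data were seen) and between 24 and 26 with CAT-ABP + alum (22 to 27). Same-numbered tumors of compared groups had correlations between -0.29 and 0.33 and at most 2 pairs over 0.1. The labels do not say whether the numbers pair tumors, and these few pairs cannot settle it. With the replicate number as a block, 0 members passed for EC CAT in CT26 (median -0.40) and in 4T1 (0.31), 33 in CT26 against 4T1 with alum and 24 with CAT-ABP + alum, and no other count of members past the adjusted test changed. At an unadjusted p under 0.05 the block moved the members from 9 to 21 for EC CAT in CT26, from 7 to 10 in 4T1, from 3 to 5 in 4T1-CAT and from 10 to 17 in 4T1-CAT against 4T1. Shallow libraries, members with few counts (*Bst2*, *Isg15*) and reads shared between near copies limit what can be seen.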
